A study of Rattus norvegicus with 6 samples.

Results

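The genes described here encode the proteasome, its assembly factors and its activators, measured in rat bone marrow cells that carry c-kit, after phenylhydrazine (PHZ) or phosphate-buffered saline (PBS). They were taken by symbol, as every row of the authors' comparison table whose symbol begins with Psma to Psmg followed by a digit, without use of any measured value. This rule took 49 of the 17172 genes and loci listed. Of these, 47 are subunits, assembly factors or activators. The other two were Psma3l, a near-identical copy of Psma3, and Psmc3ip, a factor of meiotic recombination that is no part of the proteasome; both are described separately below. All animals were ACI rats, an inbred strain, aged 6 to 8 weeks. The PHZ group of 3 libraries came from rats injected into the abdominal cavity with 100 mg/kg PHZ, a compound that destroys circulating red cells, and sampled after 36 h. The control group of 3 libraries came from rats treated with PBS for 36 h. Bone marrow cells carrying c-kit, a receptor of stem cells and progenitors, were purified and their polyadenylated RNA was sequenced; the labels mark PBS replicates 1 and 3 and PHZ replicates 1 and 3 as female and the replicate numbered 2 of each group as male.

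The proteasome is a barrel-shaped protease that degrades proteins tagged with ubiquitin. Its core particle consists of rings of alpha subunits (Psma genes) around rings of beta subunits (Psmb genes), and Psmb5, Psmb6 and Psmb7 hold the catalytic sites. A regulatory cap, made of a base with a ring of ATPases (Psmc genes) and a lid (with the base's other subunits, Psmd genes), recognises, deubiquitylates and unfolds substrates. In immune cells and after interferon, Psmb8, Psmb9 and Psmb10 take the places of Psmb5, Psmb6 and Psmb7 during assembly and form the immunoproteasome, and Psme1 and Psme2 form an alternative activator, PA28. Red cell precursors are known to clear much of their protein content through the ubiquitin and proteasome pathway as they mature.

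Total estimated counts lay between 13196249 and 19492793 per library, and each member's levels are given below as CPM (read counts scaled to the library total and to edgeR's TMM factor) in the order of replicates 1, 2 and 3. Y-linked transcripts went against the sex label in 3 libraries: PBS replicate 1 and PHZ replicate 3, both labelled female, held them at 210 and 162 CPM (here without TMM scaling), and PBS replicate 2, labelled male, held 1 such count. The labels do not say which of these libraries is named wrongly, and whether their treatment labels hold was not tested. PBS replicate 1 also stood apart in markers of macrophages and of MHC class II cells. Its 7 monocyte and macrophage markers summed to 2628 CPM, against 1010 to 1097 in the other PBS libraries and 997 to 1328 after PHZ. Its 6 MHC class II markers summed to 4232 CPM, against 1439 to 1642 and 672 to 2011. Kit itself, the gene of the selected receptor, was at 54.9, 63.9 and 51.7 CPM after PBS and 33.9, 55.1 and 71.6 CPM after PHZ, and did not pass the test (edgeR adjusted p = 0.841). The labels do not say whether the libraries came from separate rats, so p-values measure the spread between these libraries only, and in bulk RNA fewer cells of a type and less RNA per cell cannot be told apart.

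Transcripts of most proteasome genes were higher after PHZ. Of the 47 matching genes that passed the filter on low counts, 27 rose and none fell (edgeR quasi-likelihood test on the estimated counts of all 13547 tested genes, Benjamini-Hochberg adjusted p under 0.05), against 8.99% of all tested genes higher and 4.17% lower. Without Psma3l and Psmc3ip, 25 of 45 rose. The median log2 difference over the 47 was 0.63, or 1.54-fold, while the median over all tested genes was -0.04. All 3 PHZ libraries lay above all 3 PBS libraries in 37 of the 47, which was the case for 22.5% of all tested genes. They lay below all 3 in 0 of the 47 and in 19.2% of all tested genes. Groups thus did not overlap in 41.7% of all tested genes, which limits what a lack of overlap shows for a single gene below. Estimates ran from 0.943-fold for Psmb10 to 2.16-fold for Psmd9, and 45 of 47 were above 0 on the log2 scale. The members together took 0.361%, 0.318% and 0.292% of all counts after PBS and 0.534%, 0.493% and 0.434% after PHZ. These counts of calls rest on few libraries. Without PBS replicate 2 or without PBS replicate 3, edgeR called 0 members and 0 of all genes. Then 34 and 32 members had an unadjusted p under 0.05, all higher, with the lowest adjusted p at 0.0969 and 0.114. In the same fits 3325 of 13815 and 3291 of 13864 genes had an unadjusted p under 0.05, in either direction. Without PHZ replicate 2, edgeR called 1 member, against 1.55% of all genes higher. Without PBS replicate 1, PHZ replicate 1 or PHZ replicate 3 it called 22, 21 and 13, against 7.43%, 8.78% and 2.68% of all genes higher. Leaving out the 3 libraries that went against their sex label left 1 PBS and 2 PHZ libraries, with all 47 estimates above 0. The median log2 difference over the 47 was then 0.78, against 0.03 over all genes. With a lone PBS library the spread of that group cannot be measured. The counts of calls by role given below are those of all 6 libraries and carry the same limit. With upper-quartile scaling edgeR called 23, against 7.02% of all genes higher, and DESeq2 called 35, against 14.1%, all of them higher. DESeq2 called 1910 higher genes out of 3469 over the whole table, where edgeR called 1218 higher out of 1783.

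**Figure D1:**
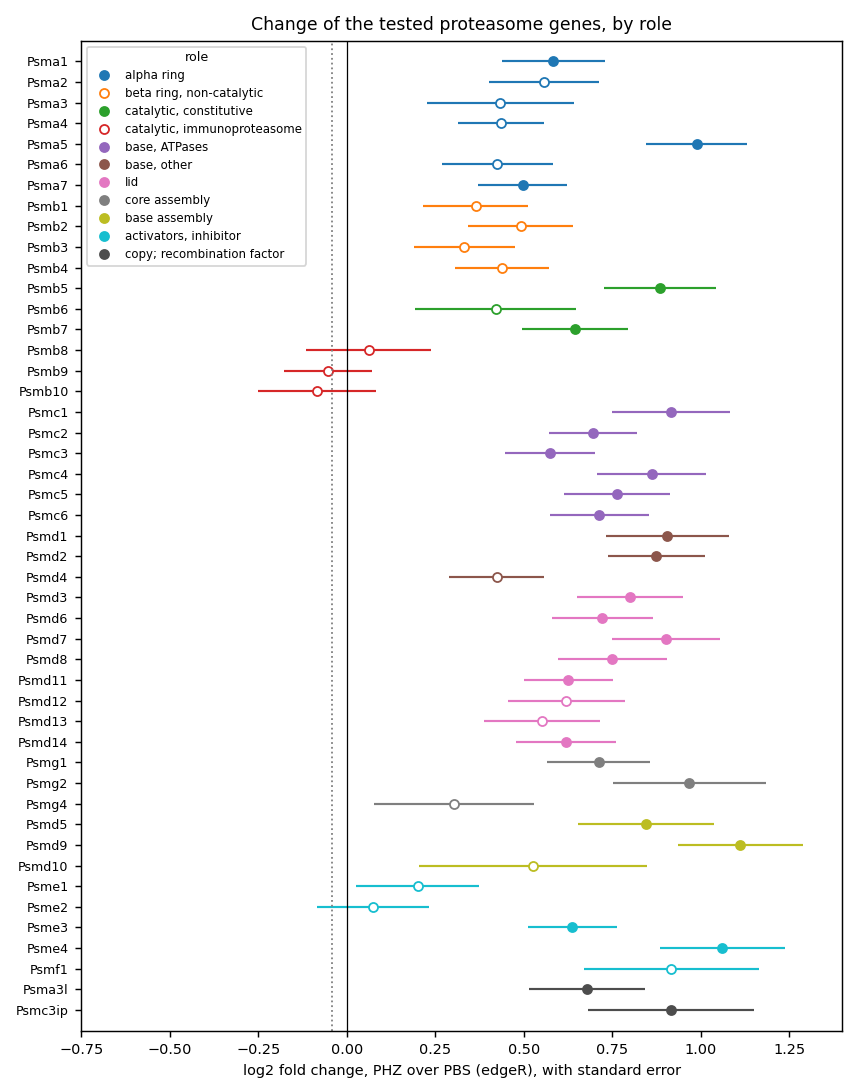
Each row is a tested gene, grouped and coloured by role, and the x axis gives its log2 fold change of PHZ over PBS from edgeR with the standard error as a bar; filled points passed the test, open points did not, and the dotted line marks the median of all tested genes at -0.04. The points of the immunoproteasome subunits Psmb8, Psmb9 and Psmb10 and of the activator genes Psme1 and Psme2 lie nearest to 0, and those of all 6 ATPases of the base are filled.

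The alpha ring, whose amino termini form the gate of the core, had 3 of 7 genes that rose, with a median of 1.41-fold. Psma5 had the lowest adjusted p of all members. It was at 51.7, 43.1 and 45.9 CPM after PBS and 95.7, 103 and 80.8 CPM after PHZ. The groups did not overlap, and the difference was 1.98-fold (log2 0.99 ± 0.14 SE, edgeR adjusted p = 0.0187). Psma1 rose 1.499-fold and Psma7 1.41-fold (edgeR adjusted p = 0.0456 and 0.0486), both just inside the threshold. Psma2 and Psma4, at 1.47-fold and 1.35-fold, lay just outside it (0.0591 and 0.0590). Psma6 was at 99.5, 83.6 and 90.3 CPM against 127, 139 and 101 CPM, 1.34-fold without passing the test (edgeR adjusted p = 0.110), although every PHZ library was above every PBS library. Psma3, at 1.35-fold, had overlapping groups and an adjusted p of 0.190. Its reads were partly split with its copy Psma3l, which rose 1.602-fold (edgeR adjusted p = 0.0429). With the counts of both summed, the difference was 1.47-fold and did not pass (edgeR adjusted p = 0.0664).

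The beta subunits without catalytic sites, Psmb1 to Psmb4, form the inner rings together with the catalytic ones. edgeR called 0 of the 4 (3 had an unadjusted p under 0.05) and DESeq2 called 2, Psmb2 and Psmb4, with estimates between 1.26-fold (Psmb3) and 1.41-fold (Psmb2) and edgeR adjusted p values between 0.0722 and 0.153. Psmb1 was at 140, 112 and 113 CPM after PBS and 163, 168 and 138 CPM after PHZ, so that its highest PBS library exceeded its lowest PHZ library. Psmb3, with the smallest difference, was at 58.5, 66.7 and 61.2 CPM and 75.2, 90.5 and 68.8 CPM, and its groups did not overlap. Psmb2 showed no overlap either, at 62.7, 59.3 and 58.1 CPM against 86.4, 97.0 and 69.7 CPM.

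Of the constitutive catalytic subunits, Psmb5 and Psmb7 rose. Psmb5, the subunit with chymotrypsin-like activity, was at 35.7, 37.5 and 39.8 CPM after PBS and 64.6, 84.1 and 60.1 CPM after PHZ. Its lowest PHZ library stood well above its highest PBS library, and the difference was 1.85-fold (log2 0.89 ± 0.16 SE, edgeR adjusted p = 0.0238). Psmb7, with trypsin-like activity, was at 86.9, 69.9 and 67.5 CPM and 119, 128 and 105 CPM, again without overlap (1.56-fold, edgeR adjusted p = 0.0397). Psmb6, with caspase-like activity, was at 14.5, 21.3 and 23.0 CPM and 21.7, 31.2 and 25.8 CPM. Its groups overlapped, and its 1.34-fold estimate did not pass (edgeR adjusted p = 0.235). Reads of Psmb6 were shared with an unnamed locus that the authors' annotation describes as the same subunit. The summed counts of the 2 loci were 60.3, 56.4 and 54.0 CPM against 77.5, 93.8 and 67.9 CPM, without overlap (log2 difference 0.49, edgeR adjusted p = 0.0748).

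None of the 3 catalytic subunits of the immunoproteasome passed the test, and all 3 had overlapping groups. Psmb8, which takes the place of Psmb5, was at 62.5, 59.2 and 58.0 CPM after PBS and 76.0, 62.8 and 48.7 CPM after PHZ. Psmb9, which takes that of Psmb6, was at 48.9, 50.02 and 46.5 CPM and 50.4, 48.5 and 41.3 CPM. Psmb10, which takes that of Psmb7, was at 46.4, 42.8 and 38.7 CPM and 45.7, 42.7 and 32.1 CPM. In each of them PHZ replicate 3 was the lowest of all 6 libraries and PHZ replicate 1 was the highest or, for Psmb10, second to PBS replicate 1. The estimates were 1.04-fold for Psmb8 (log2 0.06 ± 0.18 SE, edgeR adjusted p = 0.827), 0.965-fold for Psmb9 (-0.05 ± 0.12, 0.792) and 0.943-fold for Psmb10 (-0.08 ± 0.17, 0.751). The sign of these estimates was not stable. Psmb9 and Psmb10 moved to 0.03 and 0.06 without PHZ replicate 3, and Psmb8 to -0.10 without PHZ replicate 1. An unnamed locus described as similar to Psmb8 shared its reads. With both summed, Psmb8 was 1.06-fold (edgeR adjusted p = 0.659).

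The balance of each immunoproteasome subunit against the constitutive subunit it replaces was compared per library as a ratio of FPKM, which accounts for transcript length. Psmb8 over Psmb5 was 1.38, 1.24 and 1.15 after PBS and 0.925, 0.588 and 0.636 after PHZ. Every PBS ratio was above 1 and every PHZ ratio below it, a difference of -0.83 on the log2 scale (exact two-sided permutation p = 0.1, 0.15 after adjustment over the 3 ratios). With the unnamed locus similar to Psmb8 added to Psmb8, not every PHZ ratio stayed below 1. The log2 difference of Psmb8 over Psmb5 was then -0.77 (exact permutation p = 0.1). Psmb10 over Psmb7 was 0.517, 0.595 and 0.557 after PBS and 0.374, 0.325 and 0.298 after PHZ. These groups were likewise apart, with a log2 difference of -0.75 (exact permutation p = 0.1, adjusted 0.15). Psmb9 over Psmb6 was 2.93, 2.05 and 1.76 after PBS and 2.02, 1.35 and 1.39 after PHZ. Here PHZ replicate 1 exceeded PBS replicate 3, and the log2 difference was -0.49 (exact permutation p = 0.2, adjusted 0.2). The unnamed copy of Psmb6 held more FPKM than Psmb6 itself in every library. Its values were 57.3, 43.9 and 35.2 against 20.4, 29.9 and 29.3 after PBS, and 71.9, 65.3 and 49.5 against 31.4, 36.5 and 34.1 after PHZ. With this copy added to Psmb6, every ratio of Psmb9 to Psmb6 was below 1 and the groups did not overlap. The log2 difference was then -0.53 (exact permutation p = 0.1). A comparison of 3 with 3 libraries cannot give a p below 0.1. Without the libraries against their sex label the log2 differences were -0.64, -0.67 and, for Psmb9 over Psmb6, -0.09. Together, Psmb8, Psmb9 and Psmb10 made up 51.4%, 51.8% and 49.8% of the summed FPKM of the 6 catalytic subunits after PBS and 43.3%, 36.5% and 36.9% after PHZ. With the unnamed copies of Psmb6 and Psmb8 added, the shares were 46.0%, 49.9% and 48.4% after PBS and 39.0%, 35.2% and 37.6% after PHZ.

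**Figure D2:**
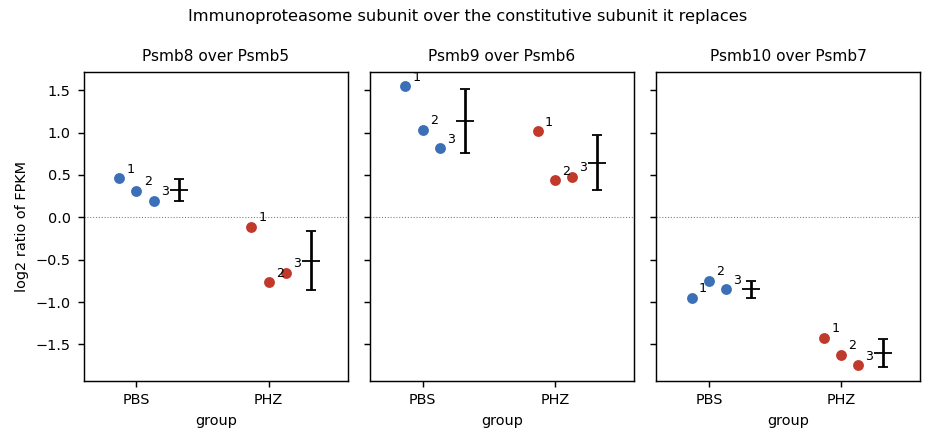
The y axis, shared by all panels, gives the log2 ratio of FPKM of each immunoproteasome subunit to the constitutive subunit it replaces; points are the libraries by replicate number, and the black marks are the mean and SD of the 3 libraries of a group. PHZ lay below PBS without overlap for Psmb8 over Psmb5 (1.15 or more against 0.925 or less as ratios) and Psmb10 over Psmb7, while PHZ replicate 1 overlapped with PBS for Psmb9 over Psmb6. The unnamed copies of Psmb6 and Psmb8 are not included in these ratios.

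Expression of MHC class II and macrophage markers, which come from cells in which the immunoproteasome is abundant, varied between libraries of one group. PBS replicate 1 had the highest sums of both lists. Of the PBS libraries it was also the highest in Psmb8, Psmb10, Psme1 and Psme2, and second to PBS replicate 2 in Psmb9. This was not particular to these genes, as it was the highest PBS library in 36 of the 47 tested members. PHZ replicate 1 had the highest sums of both lists in its group, 2011 CPM for MHC class II and 1328 CPM for macrophages. It also had the highest levels of Psmb8, Psmb9, Psmb10 and Psme2 in that group, and was second to PHZ replicate 2 in Psme1. The other PHZ libraries did not follow this order. PHZ replicate 3 had higher sums than PHZ replicate 2 (927 against 672 CPM and 1168 against 997 CPM) but lower levels of Psmb8, Psmb9 and Psmb10. Such low levels were not particular to these genes either, as PHZ replicate 3 was the lowest PHZ library in 42 of the 47 tested members. Markers of B cells and their precursors, another such lineage, were lower after PHZ in 6 of 8 genes. Their summed level was 549 to 676 CPM after PBS and 139 to 213 CPM after PHZ, with none of the 8 at 0 in any library. Of 6 tested T and NK cell markers, 5 were lower, and the sums of that list of 7 were 60.8 to 176 CPM against 64.7 to 93.7 CPM, with Gzma at 0 in PBS replicate 2. The part of these cells in the levels of Psmb8, Psmb9 and Psmb10 was not tested.

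In the cap, edgeR called 14 of 17 genes, all higher, with a median of 1.65-fold, beside 5 of the 14 constitutive core genes, with a median of 1.38-fold. DESeq2 called 17 of the 17 and 9 of the 14. The difference between cap and core was not tested. Summed FPKM of the cap genes over that of the constitutive core genes was 0.747, 0.724 and 0.734 after PBS and 0.840, 0.862 and 0.862 after PHZ. Every PHZ library was above every PBS library in this ratio, for which no test was made. The ATPases of the base (Psmc1 to Psmc6) thread substrates into the core, and all 6 rose, by 1.49-fold (Psmc3) to 1.89-fold (Psmc1), with edgeR adjusted p values between 0.0238 and 0.0360. Psmc1 was at 91.0, 76.6 and 72.8 CPM after PBS and 152, 175 and 127 CPM after PHZ. Psmc2 was at 94.8, 87.9 and 85.5 CPM and 144, 159 and 132 CPM, a 1.62-fold rise (edgeR adjusted p = 0.0238). Psmc3, the least changed of them, was at 98.6, 95.9 and 86.9 CPM and 143, 151 and 125 CPM. No ATPase gene had overlapping groups.

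Of the other base subunits, the scaffold genes Psmd1 and Psmd2 rose. Psmd1 was at 119, 92.2 and 93.0 CPM after PBS and 214, 197 and 158 CPM after PHZ (1.87-fold, edgeR adjusted p = 0.0268). Psmd2 was at 130, 107 and 125 CPM and 219, 242 and 203 CPM (1.83-fold, edgeR adjusted p = 0.0214). Psmd4, which encodes a ubiquitin receptor, showed a smaller difference, with 78.9, 62.7 and 70.1 CPM against 89.9, 103 and 91.3 CPM. Its groups did not overlap, but the 1.34-fold estimate did not pass (edgeR adjusted p = 0.0792).

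In the lid, which removes ubiquitin chains, 6 of 8 genes rose, with a median log2 difference of 0.67, and DESeq2 called all 8. The largest lid difference was that of Psmd7, the partner of the deubiquitylase Psmd14, at 78.9, 67.9 and 70.5 CPM after PBS and 139, 154 and 113 CPM after PHZ (1.87-fold, edgeR adjusted p = 0.0224). Psmd14 itself rose 1.54-fold (edgeR adjusted p = 0.0383). Psmd12 and Psmd13 did not pass, at 1.54-fold and 1.47-fold (edgeR adjusted p = 0.0535 and 0.0680). Psmd13 was at 78.5, 71.9 and 69.7 CPM and 96.4, 132 and 94.6 CPM, so PHZ replicate 2 stood above the other libraries of its group. That library was the highest PHZ library in 34 of the 47 tested members, and PHZ replicate 3 was the lowest in 42.

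**Figure D3:**
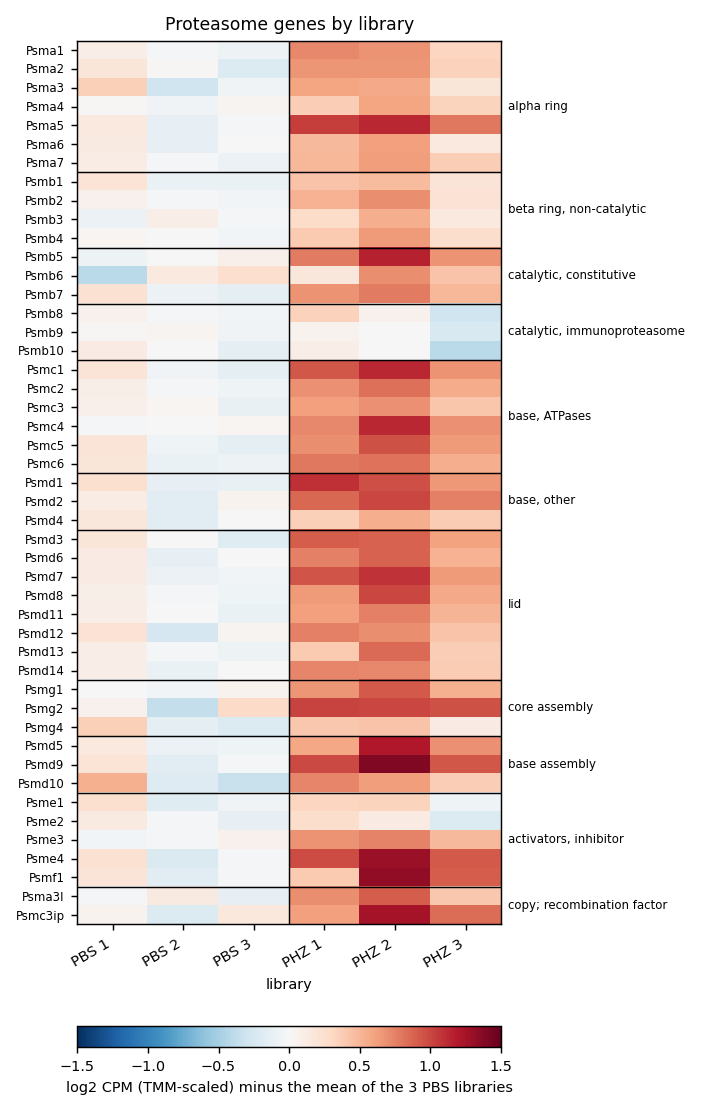
Each row is a tested gene, each column a library, and the colour gives log2 CPM minus the mean of the 3 PBS libraries, from blue (lower) to red (higher), with genes in blocks by role. The PHZ columns are red in most blocks, deepest in PHZ replicate 2, and pale or blue in the block of Psmb8, Psmb9 and Psmb10, where PHZ replicate 3 is lowest.

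Assembly chaperones bind immature particles and leave before the proteasome is complete. Of the chaperones that help build the core, Psmg1 and Psmg2 pair with each other on the alpha ring, and both rose. Psmg1 was at 19.9, 19.4 and 20.8 CPM after PBS and 31.7, 37.9 and 28.9 CPM after PHZ (1.64-fold, edgeR adjusted p = 0.0308). Psmg2, at a low level, was at 6.99, 5.24 and 8.19 CPM and 13.6, 13.4 and 12.9 CPM (1.96-fold, edgeR adjusted p = 0.0368). Psmg4, of a second pair, had overlapping groups of 10.9, 7.69 and 7.40 CPM and 11.3, 11.5 and 9.27 CPM (1.23-fold, edgeR adjusted p = 0.377). Psmg3 was not in the list and was not analysed here.

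Among the chaperones of the base, Psmd9 had the largest fold change of all members. It was at 34.7, 26.8 and 29.6 CPM after PBS and 60.2, 79.2 and 57.5 CPM after PHZ, 2.16-fold (log2 1.11 ± 0.18 SE, edgeR adjusted p = 0.0214). Even its lowest PHZ library was far above its highest PBS library. The authors' deposited table marks Psmd9 alone of the 49 members as up, and no member as down. Of all 17172 genes and loci it marks 546 as up and 1183 as down. So 1 of 49 marked up was no more than the share over all. Psmd5 rose 1.80-fold (edgeR adjusted p = 0.0385). Psmd10, also known as gankyrin, was at 5.53, 3.32 and 3.01 CPM and 6.31, 5.87 and 4.90 CPM. Its PBS replicate 1 lay within the PHZ range, and the 1.44-fold estimate did not pass (edgeR adjusted p = 0.286).

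The activators, which cap the core in place of or beside the regulatory particle, differed among themselves in their calls. Psme4, the gene of the activator PA200, was at 215, 158 and 181 CPM after PBS and 361, 450 and 346 CPM after PHZ. This was a 2.09-fold rise without overlap (log2 1.06 ± 0.18 SE, edgeR adjusted p = 0.0223), the largest after Psmd9. Psme3, which forms the nuclear activator PA28 gamma, was at 143, 145 and 155 CPM and 235, 247 and 207 CPM (1.55-fold, edgeR adjusted p = 0.0282). Of the interferon-inducible subunits, Psme1 was at 145, 108 and 118 CPM and 154, 155 and 118 CPM (1.15-fold, edgeR adjusted p = 0.447). Psme2 was at 80.4, 72.4 and 67.3 CPM and 88.1, 80.0 and 63.4 CPM (1.05-fold, edgeR adjusted p = 0.770). Both had overlapping groups, as had Psmb8, Psmb9 and Psmb10. None of these 5 interferon-inducible genes was called by edgeR at either an adjusted or an unadjusted p under 0.05, or by DESeq2, and their median was 1.04-fold. Of the other 40 tested proteasome genes 25 rose, and their median was 1.56-fold. Psmf1, the gene of a protein that inhibits the proteasome in vitro, was at 124, 96.7 and 106 CPM after PBS and 143, 271 and 203 CPM after PHZ. Its groups did not overlap, but the PHZ libraries were widely spread, and the 1.89-fold estimate did not pass (edgeR adjusted p = 0.0548).

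The tissue-restricted core genes and Psmc3ip stand apart. Psma8, the alpha subunit of the testis, was listed between 0 and 0.39 FPKM, and Psmb11, the beta subunit of the thymus, between 0 and 0.11 FPKM. Neither passed the filter on low counts. Where a library held 0 counts, the true level may lie up to that of 3 counts, 0.154 to 0.227 CPM depending on the library. Psmc3ip was at 6.93, 5.82 and 7.47 CPM after PBS and 10.2, 16.0 and 12.0 CPM after PHZ (1.89-fold, edgeR adjusted p = 0.0495).

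Levels per length, in FPKM, spanned a wide range among members that sit in the same particle. The highest mean over all 6 libraries was that of Psmb1, at 186 FPKM, followed by Psme1 at 136, Psma7 at 135 and Psmf1 at 107. The lowest among tested members were Psmd10 at 7.53 FPKM and Psmg2 at 9.72 FPKM. Of the core subunits, Psma3 at 21.7 FPKM and Psmb6 at 30.3 FPKM were the lowest, and both share reads with a copy. Of the 49 members, 9 had fractional counts in all 6 libraries, which arise where reads are divided between loci: Psma3, Psma3l, Psma7, Psmb6, Psmb8, Psmc1, Psmd6, Psmd9 and Psme2. The FPKM of Psme1 after PBS (156, 117 and 115) and of Psma7 (128, 115 and 98.8) overlapped, so their order is within the spread of the libraries.

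**Figure D4:**
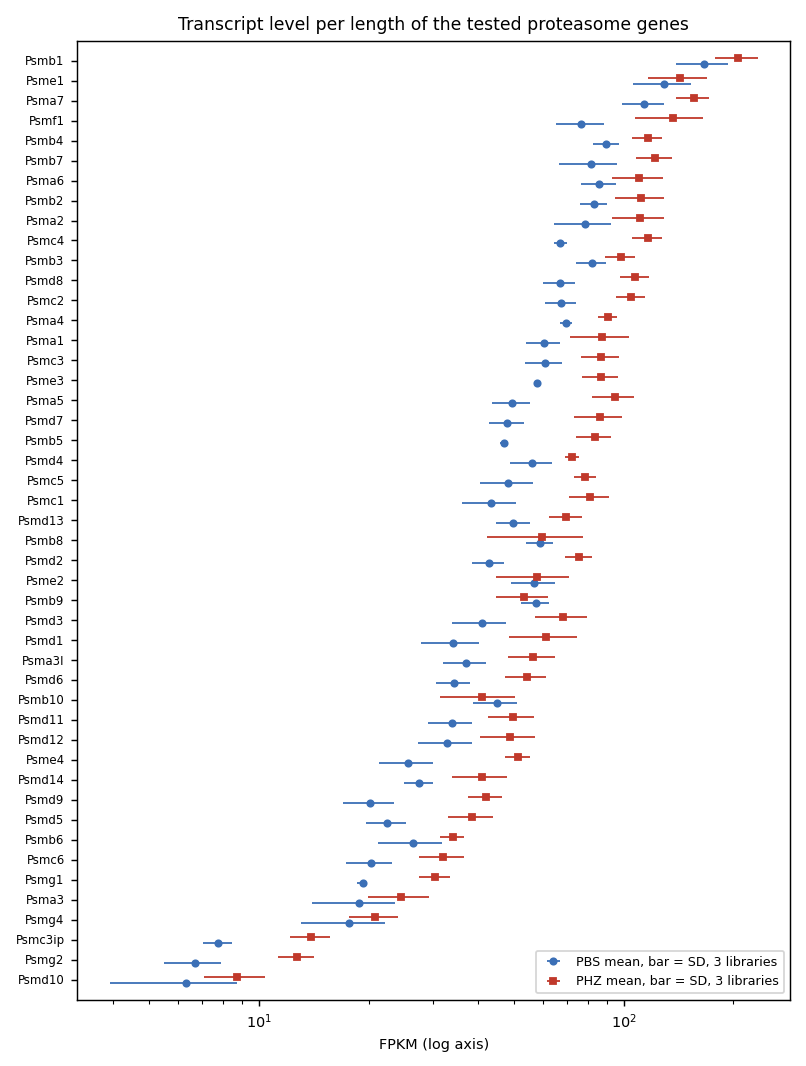
The x axis, on a log scale, gives the mean FPKM of each tested gene after PBS (circles) and PHZ (squares), with the SD of 3 libraries as bars, and genes are ordered by their mean over all 6 libraries. Chaperones such as Psmd10 and Psmg2 lie at the bottom, and the squares of Psmb8, Psmb9, Psmb10, Psme1 and Psme2 lie on or close to their circles.

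Promoters were compared as the 300 bases from 250 before to 50 after each gene's RefSeq start (rat build GRCr8), which were found for 42 of the 47 proteasome genes. The core of the antioxidant response element, the motif of the factors NRF1 and NRF2 that are known to drive proteasome genes, was searched on both strands as TGACNNNGC or TGAGNNNGC. It lay in 16 of the 42 (38.1%), against 27.1% of all 27457 promoters and 31.9% of those of tested genes. It was in 9 of 22 promoters of genes that rose, in 7 of 19 of tested genes that did not pass, and in 0 of 5 of the interferon-inducible genes. The core of the interferon-stimulated response element, searched as a pair of GAAA words 2 bases apart, lay in 7 of the 42 (16.7%), against 3.77% of all promoters and 3.04% of those of tested genes. It was in 1 of 22 that rose (Psmd7), in 6 of 19 that did not pass, and in Psmb8, Psmb10 and Psme2 of the 5 interferon-inducible genes. A motif of STAT factors, TTCNNNGAA, was in 4 of 42 (9.52%, against 8.68% of all), and the CCAAT box in 20 of 42 (47.6%, against 37.7%). These matches describe the letters only.

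Of the 9 promoters of proteasome genes that rose and hold the antioxidant core, 4 are given below. Each is printed 5′ to 3′ on the gene's own strand, from 150 bases before to 15 after the start, and capitals mark the match, on either strand. They are Psmd9 (chr12:39018250-39018414, minus strand), Psma5 (chr2:198584355-198584519, plus), Psmb5 (chr15:32047365-32047529, minus) and Psme4 (chr14:108706493-108706657, plus).
Psmd9: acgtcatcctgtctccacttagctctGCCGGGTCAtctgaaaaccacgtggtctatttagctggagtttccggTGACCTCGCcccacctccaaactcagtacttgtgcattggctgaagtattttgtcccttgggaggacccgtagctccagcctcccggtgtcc
Psma5: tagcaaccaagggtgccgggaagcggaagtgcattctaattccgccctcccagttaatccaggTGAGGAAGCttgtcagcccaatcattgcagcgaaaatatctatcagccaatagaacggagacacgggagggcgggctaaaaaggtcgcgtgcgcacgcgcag
Psmb5: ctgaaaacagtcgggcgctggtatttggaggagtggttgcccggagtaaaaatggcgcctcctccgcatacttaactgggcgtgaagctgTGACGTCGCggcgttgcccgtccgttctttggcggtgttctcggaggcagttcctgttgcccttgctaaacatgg
Psme4: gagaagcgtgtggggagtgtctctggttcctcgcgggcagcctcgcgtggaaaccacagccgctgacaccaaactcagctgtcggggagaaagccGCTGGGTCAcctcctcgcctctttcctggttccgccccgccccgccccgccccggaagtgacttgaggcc

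Of the 6 promoters of members that did not pass the test and hold the interferon core, 3 are given next, with the core in capitals. They are Psmb8 (chr20:4657017-4657181, minus strand), Psmb10 (chr19:50743278-50743442, minus) and Psme2 (chr15:33052737-33052901, minus). Psmb10 has 2 matches in the window.
Psmb8: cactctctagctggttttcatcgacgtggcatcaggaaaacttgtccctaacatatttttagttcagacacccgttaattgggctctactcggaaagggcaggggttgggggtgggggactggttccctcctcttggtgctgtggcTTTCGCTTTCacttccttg
Psmb10: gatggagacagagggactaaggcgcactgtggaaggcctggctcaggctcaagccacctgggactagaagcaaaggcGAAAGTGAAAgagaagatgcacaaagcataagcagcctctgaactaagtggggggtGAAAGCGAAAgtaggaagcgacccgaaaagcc
Psme2: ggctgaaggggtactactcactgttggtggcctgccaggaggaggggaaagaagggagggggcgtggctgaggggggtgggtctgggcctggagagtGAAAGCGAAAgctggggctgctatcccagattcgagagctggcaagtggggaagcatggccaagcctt

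Psmb9 shares its upstream region with Tap1, the gene of a subunit of the transporter that carries proteasome-made peptides into the endoplasmic reticulum. The genes are transcribed away from each other from starts 457 bases apart. Tap1 is no member, but it was among the pathway genes listed for comparison. It was at 69.4, 82.8 and 72.2 CPM after PBS and 148, 157 and 112 CPM after PHZ, a 1.86-fold rise without overlap (edgeR adjusted p = 0.0251). The ratio of Tap1 to Psmb9 in CPM was 1.42, 1.66 and 1.55 after PBS and 2.93, 3.25 and 2.70 after PHZ, so the ratio did not overlap between groups. Their windows are printed as above; that of Psmb9 (chr20:4668850-4669014, plus strand) holds none of the motifs in capitals, and that of Tap1 (chr20:4668529-4668693, minus) holds the interferon core.
Psmb9: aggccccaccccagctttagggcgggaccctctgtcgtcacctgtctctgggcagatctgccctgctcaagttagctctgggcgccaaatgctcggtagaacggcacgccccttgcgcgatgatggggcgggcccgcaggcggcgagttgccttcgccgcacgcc
Tap1: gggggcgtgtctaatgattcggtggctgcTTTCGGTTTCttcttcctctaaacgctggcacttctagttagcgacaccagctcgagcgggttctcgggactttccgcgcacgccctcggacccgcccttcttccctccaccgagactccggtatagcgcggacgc

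Genes that work with the proteasome were listed by role, and 32 of 37 were found and tested. Of these, 6 rose and 1 fell, with a median of 1.22-fold, beside 27 of 47 members. Over all tested genes 8.99% were higher and 4.17% lower, so 1 of 32 lower was no more than that share. Without PBS replicate 2, PBS replicate 3 or PHZ replicate 2, edgeR called 0 of the 32, and without PHZ replicate 3 it called 1, higher. Among subunits and assembly factors named outside the Psm series, Adrm1, a ubiquitin receptor of the base, was at 79.5, 85.5 and 75.7 CPM after PBS and 125, 158 and 117 CPM after PHZ (1.66-fold, edgeR adjusted p = 0.0307). Sem1, a small lid subunit, and Pomp, a maturation factor of the core, did not pass, at 1.32-fold and 1.39-fold (edgeR adjusted p = 0.162 and 0.314). An unnamed locus is also described as Pomp. Both deubiquitylases that dock on the cap rose. Uchl5, which binds Adrm1, was at 27.6, 21.4 and 23.4 CPM and 42.7, 52.6 and 39.5 CPM (1.86-fold, edgeR adjusted p = 0.0251). Usp14 was at 40.5, 33.5 and 40.2 CPM and 60.8, 58.6 and 49.7 CPM (1.48-fold, edgeR adjusted p = 0.0461).

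The shuttle factors that bring ubiquitylated proteins to the cap did not all go one way. Ubqln1 was at 124, 116 and 118 CPM after PBS and 180, 180 and 182 CPM after PHZ, with the PHZ libraries nearly equal (1.51-fold, edgeR adjusted p = 0.0240). Its relative Ubqln2 was the pathway gene that fell, from 40.2, 39.2 and 35.6 CPM to 26.4, 26.1 and 29.2 CPM (1.41-fold lower, edgeR adjusted p = 0.0452). Nploc4, a cofactor of the unfoldase Vcp, rose 1.63-fold (edgeR adjusted p = 0.0487), while Vcp itself, at 1.28-fold, did not pass (0.202).

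The polyubiquitin gene Ubb was at 3710.02, 3505 and 3643 CPM after PBS and 2905, 2951 and 2992 CPM after PHZ (1.23-fold lower, edgeR adjusted p = 0.206). Its groups did not overlap. Rps27a, whose product is ubiquitin fused to a ribosomal protein, was at 1.29-fold without passing (edgeR adjusted p = 0.172). Of the 4 tested regulators of proteasome genes 0 were called by edgeR (2 at an unadjusted p under 0.05) and 0 by DESeq2. Those 2 went opposite ways. Nfe2l2, which encodes NRF2, was at 91.5, 93.6 and 103 CPM and 86.5, 52.6 and 68.1 CPM (1.39-fold lower, edgeR adjusted p = 0.139). Akirin2 was at 62.0, 58.4 and 66.2 CPM and 71.3, 94.4 and 80.5 CPM (1.32-fold higher, edgeR adjusted p = 0.101). Nfe2l1, which encodes NRF1, was not in the list. Of the 7 antigen processing genes Tap1 alone was called by edgeR, while DESeq2 also called B2m and Irf1. B2m, the light chain of MHC class I, was 1.38-fold lower and Irf1, an interferon response factor, 1.76-fold lower, without passing (edgeR adjusted p = 0.0940 and 0.0645). In both, as in Ubb, every PHZ library was below every PBS library, which was the case for 19.2% of all tested genes.

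Of 7 markers of red cell precursors 4 rose: Klf1 and Gata1, which encode transcription factors of the lineage, by 2.79-fold and 2.34-fold, Tfrc, the transferrin receptor, by 3.35-fold, and Epb42, a membrane skeleton protein, by 2.10-fold (edgeR adjusted p = 0.0218, 0.0247, 0.0212 and 0.0386). The other 3 did not pass: Hemgn, at 2.01-fold (edgeR adjusted p = 0.0575), and Alas2 and Hba1, at 1.19-fold and 1.15-fold with overlapping groups (0.658 and 0.808). Klf1 was at 203, 174 and 177 CPM after PBS and 367, 683 and 493 CPM after PHZ, with PHZ replicate 2 the highest and PHZ replicate 1 the lowest library of its group. Among the proteasome genes PHZ replicate 2 was the highest of that group in 34 of 47 and PHZ replicate 3, not replicate 1, the lowest in 42. The list's sum, most of it Hba1, was 68484 to 153320 CPM after PBS and 58665 to 179663 CPM after PHZ, and none of the markers was at 0. The part of a change in cell proportions in the rise of the proteasome genes was not tested.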

How the data were processed

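Per the labels' protocols, polyadenylated RNA of purified c-kit+ bone marrow cells was extracted with Trizol and sequenced. The tools listed in the submitters' processing notes are RSEM, HISAT and GATK, with rn6 as build; no source used here gives roles, versions or strandedness. For every gene and library the authors deposited, per the file headers, an expected count (RSEM's estimate, which divides reads between similar loci) and an FPKM value. Their comparison table holds the authors' mean FPKM, a log2 ratio and a score per gene; how the score was made is not stated, and of this table only symbols, descriptions and the up and down marks were used.

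Expected counts were rounded and tested in edgeR 4.0.16 (R 4.3.3) with TMM scaling, filterByExpr by group, a robust quasi-likelihood fit over 13547 genes on all 6 libraries and Benjamini-Hochberg adjustment, with an adjusted p under 0.05 as the threshold. CPM values are TMM-scaled, except those of Y-linked transcripts and of count limits, which are scaled to all counts. Total counts of 13196249 to 19492793 mean that 3 counts correspond to 0.154 to 0.227 CPM. Ratios of FPKM were compared by exact permutation tests over libraries (scipy 1.17.1). Alternatives were upper-quartile scaling, DESeq2 1.42.0, no filter, limma 3.58.1 on log2(FPKM + 1) or log2(FPKM + 0.1), sex as a covariate, the replicate number as a block, and leaving libraries out. The scripts were tested on simulated data.

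Values per library are given for the catalytic subunits, the activators, the core assembly factors, in each class the called member with the smallest p and the members with the largest and smallest change, and the members of highest and lowest FPKM; others are named for their class counts, and Psmc3ip, pathway and marker genes after their values were seen. Members, lists and tests were chosen with earlier results of these data known. Promoter sequences and starts are those of RefSeq, build GRCr8; gene symbols are those of the files. Marker and pathway genes not in the files' lists were not analysed here. Some pathway genes that were tested are not reported here.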

Additional observations from a re-analysis of the deposited data

How the results depend on the processing

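The number of proteasome genes higher after PHZ, 27, was 23 with upper-quartile scaling, 35 with DESeq2 and 25 without a filter. It was 21 with limma on log2(FPKM + 1) or log2(FPKM + 0.1), 11 with limma without a filter and 12 with sex as labelled as a covariate. In that order, 7.02%, 14.1%, 6.455%, 8.22%, 8.04%, 3.28% and 5.06% of all genes were higher. Y-linked transcripts went against the label in 3 libraries, so that covariate does not adjust for sex as read from them. No member was lower under any of these settings. With the replicate number as a block the number of members called was 0 (lowest edgeR adjusted p 0.0555), as it was for all genes tested. In that fit 37 members, and 4641 of all 13547 genes, had an unadjusted p under 0.05. Same-numbered libraries' deviations correlated at 0.21, 0.06 and 0.01, and differently numbered ones at -0.17 to 0.15. These values do not settle whether the numbers pair libraries, and the main fit used no pairing. Without the 3 libraries against their sex label it was also 0, and leaving out 1 library at a time gave 0 to 22. The 6 pathway genes higher became 10 with DESeq2, 1 with limma without a filter, 0 with the replicate block and 0 without the 3 libraries, and ranged from 0 to 6 when 1 library was left out. The 1 lower became 5 with DESeq2 and 0 with no filter, with each limma setting, with sex as a covariate, with the replicate block and without the 3 libraries, and ranged from 0 to 1. Signs turned for 4 members that did not pass the test. Psmb8 (log2 0.06) was -0.0167, -0.0174 and -0.0167 with limma on log2(FPKM + 1), on log2(FPKM + 0.1) and without a filter, and ranged from -0.0975 (without PHZ replicate 1) to 0.214 when 1 library was left out. Psmb9 (-0.05) was 0.0877 without the 3 libraries and ranged from -0.105 to 0.0324 (without PHZ replicate 3). Psmb10 (-0.08) was 0.191 and ranged from -0.182 to 0.0569 in these settings. Psme2 (0.07) ranged from -0.0277 (without PHZ replicate 1) to 0.200. The cause was not tested, beyond the fewer libraries and degrees of freedom that the block and the omissions leave. All 3 subunit ratios kept their direction in every setting. Sums with copies and the count without Psma3l and Psmc3ip were chosen after seeing the data. With 3 libraries a group, an adjusted p near 0.05 on either side does not separate genes that changed from genes that did not.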
